A study of Mus musculus with 77 samples.

Results

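The comparison followed the retinas of oxygen-exposed mice over the first days after their return to room air: P17 hyperoxia arrays were set against P12 hyperoxia arrays, 13 mice in each group, which made up 26 of the 77 retina arrays of the series. All animals were C57BL/6 mice. Pups of the hyperoxia (OIR) group were kept with their mother in 75% oxygen from postnatal day 7 to day 12 and then in room air. P12 hyperoxia retinas were therefore taken at the end of the exposure, and P17 hyperoxia retinas after 5 days in room air. The control (normoxia) mice stayed in 21% oxygen throughout. Their P12 and P17 arrays, 12 of each, were used here only to separate the course of exposed mice from normal maturation over the same days. Whole litters were assigned to an oxygen condition, and pups of a litter were spread over the ages, so mice of a group and of both ages may be littermates; the litter was not a term in any fit, and p-values measure the spread between mice. Each array was hybridised with retina RNA of 1 mouse and a common reference RNA in the other colour, and values are log2 ratios of retina over reference. The labels give Cy5 as the dye of the retina, but on each of the 77 arrays Cy3 was the brighter colour for the rod genes Gnat1, Pde6b and Sag, and Cy3 was therefore read as retina; with the dyes as labelled every sign given here would turn.

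In the mouse the retinal vessels grow after birth. High oxygen during that time stops their growth and closes capillaries in the central retina, and in room air the tissue that has lost its vessels becomes hypoxic, sends out vascular endothelial growth factor (VEGF) and is filled by regrowing vessels and by tufts that break through the retinal surface, which are most prominent at P17. The retina itself also matures over these days: the eyes open, photoreceptors extend their outer segments, and genes of immature neurons are turned down.

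From P12 to P17 the retinas of exposed mice gained transcripts of vessels, of the vessel wall and its matrix, of the hypoxia response, of glycolysis and of reactive glia, and they lost transcripts of the respiratory chain and of immature neurons. By limma with Benjamini-Hochberg adjustment over 55681 probes, 1841 probes (3.31%) passed an adjusted p of 0.05, of which 1088 (1.95%) were higher and 753 (1.35%) lower at P17. With the brightest probe taken for each of 21154 genes with a symbol, 1258 genes (5.95%) passed, 750 higher (3.55%) and 508 lower (2.4%). The rises were larger than the falls: 96 of the risen genes and 7 of the fallen genes changed by at least 1 on the log2 scale. The groups of exposed mice did not overlap in any array for 125 genes (0.591%).

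Over the same 5 days in normoxia mice fewer probes passed, 645 (1.16%), of which 343 (0.616%) were higher and 302 (0.542%) lower. By gene 430 passed (2.03%), 241 higher (1.14%) and 189 lower (0.893%). The normoxia test was a contrast in a model over 50 arrays, with 12 mice a group, and so was unlike the test of exposed mice. Fewer calls need not mean smaller changes. The median absolute log2 change over all genes was 0.039 in exposed and 0.040 in normoxia mice. Both lie below the median residual SD over probes in exposed mice, 0.075. They do not show whether the larger changes were of like size. The difference between the courses, tested as an interaction in 1 model over the 50 arrays of both oxygen groups, passed for 0.424% of probes, 222 (0.399%) with the higher and 14 (0.0251%) with the lower course in exposed mice. By gene it passed for 0.931%, with 0.875% higher and 12 genes (0.0567%) lower. Of the 750 genes that rose in exposed mice, 172 also had a higher course than in normoxia mice, while only 7 of the 508 fallen genes had a lower one. Among those 172 genes the mean of exposed mice lay below that of normoxia mice at P12 for 80.2% of the genes and above it at P17 for all 172. The way these genes were chosen favours both. Their median gap to normoxia mice was -0.11 at P12 and 0.74 at P17 on the log2 scale. Of all 1258 genes called in exposed mice, 1053 had the same sign of change in normoxia mice and 257 were called there in the same direction.

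**Figure D1:**
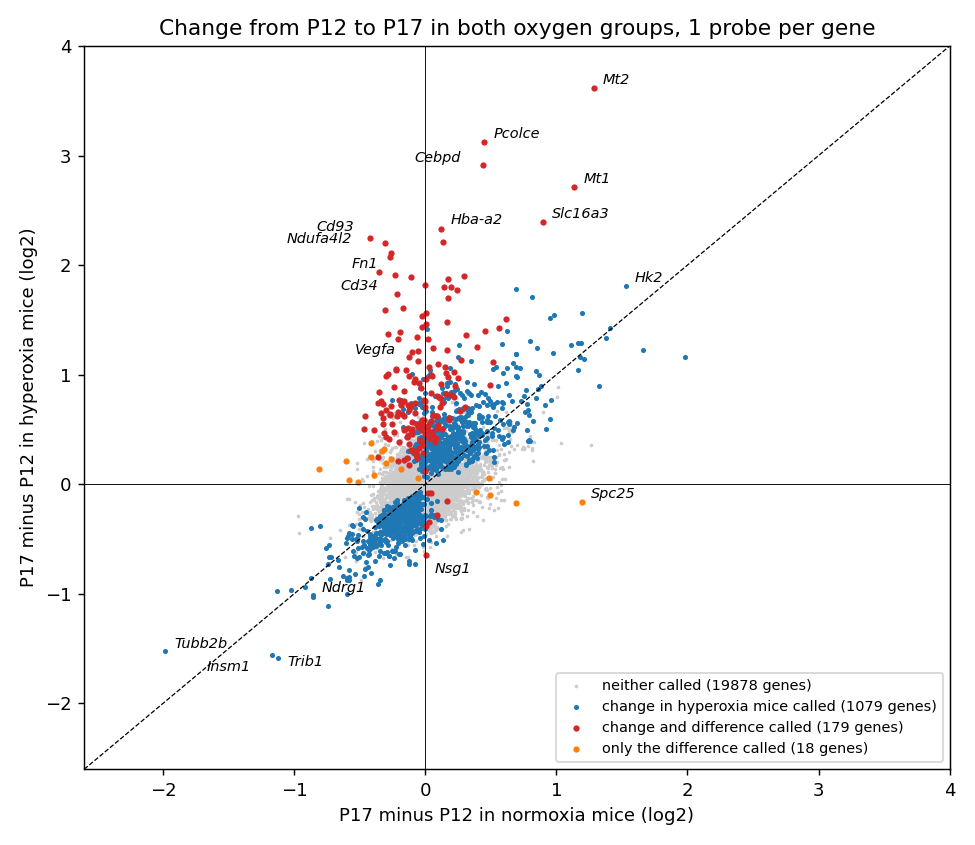
Change from P12 to P17 (log2, P17 minus P12) of 21154 genes in normoxia mice (horizontal) and hyperoxia mice (vertical), 1 point per gene; red marks genes for which both the change in hyperoxia mice and the difference between the courses passed the test. Points along the dashed line changed equally in both groups, as Tubb2b and Insm1 nearly did, and Pcolce, Cd93, Ndufa4l2 and Cebpd stand far above it.

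The tissue was retina by its defining genes: the mean log2 ratio over 26 rod genes lay between 3.31 and 4.50 in P12 hyperoxia mice and between 3.71 and 4.99 in P17 hyperoxia mice. Between 15895 and 29993 of the probes were well above background on the arrays of exposed mice. A slide carried 1 P12 and 2 P17 arrays of exposed mice with 27452 to 29993 such probes, and these arrays lay apart from the others on the first principal component; without the arrays of that slide 3108 probes passed in exposed mice. P12 and P17 arrays shared 7 slides, and with slide as a block 3616 probes passed. By Xist and Y-linked genes, 8 of 13 P12 hyperoxia mice and 4 of 13 P17 hyperoxia mice were female, and with sex as a covariate 1433 probes passed.

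Endothelial genes rose and none fell. Of 29 endothelial genes, 19 rose, against 3.55% of all genes, and the median log2 change of the list was 0.42 in exposed mice, beside 0.02 in normoxia mice and a median of -0.003 over all genes. The mean of the 29 genes lay between -0.06 and 0.13 in P12 hyperoxia mice, with a median of -0.01, and between 0.38 and 1.06 in P17 hyperoxia mice, with a median of 0.64. No P17 mouse reached down to the highest P12 mouse, and the 2 highest P17 mice were those of the slide that stood apart. In normoxia mice the median was 0.29 at P12 and 0.28 at P17, so exposed mice stood below the controls at P12 and above them at P17. The list also holds Cd34, Robo4, Mmrn2, Ptprb, Ets1, Ccm2l, Adcy4, Arap3 and Adgre5, which the study named as low in exposed mice at P12. All of these rose. They were chosen on these arrays, so part of the count and of the low P12 level follows from that choice. In whole retina, more endothelial cells and more RNA per cell cannot be told apart.

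Cd34, a surface sialomucin of endothelial and tip cells, had log2 ratios of -3.30 (lowest), -2.57 (median) and -2.09 (highest) in P12 hyperoxia mice and of -1.31, -0.76 and -0.30 in P17 hyperoxia mice. All P17 mice were above all P12 mice. The rise was 1.91 ± 0.12 (SE; 3.75-fold, adjusted p = 7.20e-11), against -0.23 in normoxia mice, and the difference between the courses was 2.14 ± 0.16 (adjusted p = 8.50e-14). These values are of the brighter of its 2 probes. The other was not called, and the mean of both rose by 0.98. Cd93, a C-type lectin-like receptor of endothelium, ran from 0.24, 0.79 and 1.34 at P12 to 2.57, 3.07 and 3.53 at P17. It rose by 2.24 ± 0.13, again without overlap, where normoxia mice changed by -0.42. Egfl7, a protein that endothelial cells secrete into their matrix, rose by 1.73 ± 0.10, from a median of 0.31 to 2.15. Vwf, the clotting factor stored in endothelial granules, rose by 1.54 ± 0.11 from a median of 0.30 to 1.86. Cldn5, the main claudin of the blood-retina barrier, rose by 1.04 ± 0.22 (adjusted p = 0.00461), but its groups overlapped, from 0.19 to 1.74 at P12 and from 1.25 to 3.24 at P17, and the difference from normoxia mice was not called (adjusted p = 0.562). Pecam1, Tek, Kdr and Erg, which also define endothelium, were among the 10 genes that did not pass, with changes of 0.06, -0.03, 0.09 and 0.07.

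Tip cells lead a growing vessel sprout. Of 15 genes of the tip cell list 5 rose (33.3%, against 3.55% of all genes) and none fell: Vwf, Esm1, Apln, Pdgfb and Unc5b. For all 5 the difference between the courses passed too, against 0.875% of all genes with a higher course. Esm1 and Apln are among the study's largest rises at P17, which were chosen on these arrays. Vwf, described above as stored in endothelial granules, is in this list but is not particular to tip cells. Apln, the ligand of the apelin receptor, ran from -0.89, -0.72 and -0.23 in P12 hyperoxia mice to -0.10, 0.63 and 2.02 in P17 hyperoxia mice. With 5 of 13 P12 and all P17 arrays well above background, its groups did not overlap, and it rose by 1.32 ± 0.15 (adjusted p = 1.19e-06), against -0.20 in normoxia mice. Esm1, the proteoglycan endocan, was not well above background on any of the P12 hyperoxia arrays and was so on all 13 P17 hyperoxia arrays. Its retina signal was at least 2.93-fold higher at P17; this bound sets the P17 mean against the dimmest signal that counted as well above background on each P12 array. Its log2 ratio rose by 1.35 ± 0.18 (adjusted p = 1.12e-05), from -2.33, -1.19 and -0.42 to -0.47, 0.22 and 1.27. One mouse was the highest of the P17 hyperoxia group in both Apln and Esm1, and it was on the slide that stood apart; without that slide the changes were 1.20 and 1.17. Dll4, the Notch ligand of tip cells, changed by -0.01 and Cxcr4 by 0.05, and neither passed. Of 24 Notch and ALK1 genes 2 rose (8.33%, against 3.55% of all genes): Acvrl1, the receptor ALK1, and Eng, its co-receptor endoglin. Eng rose by 0.68 ± 0.08, with a difference between the courses of 0.80.

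**Figure D2:**
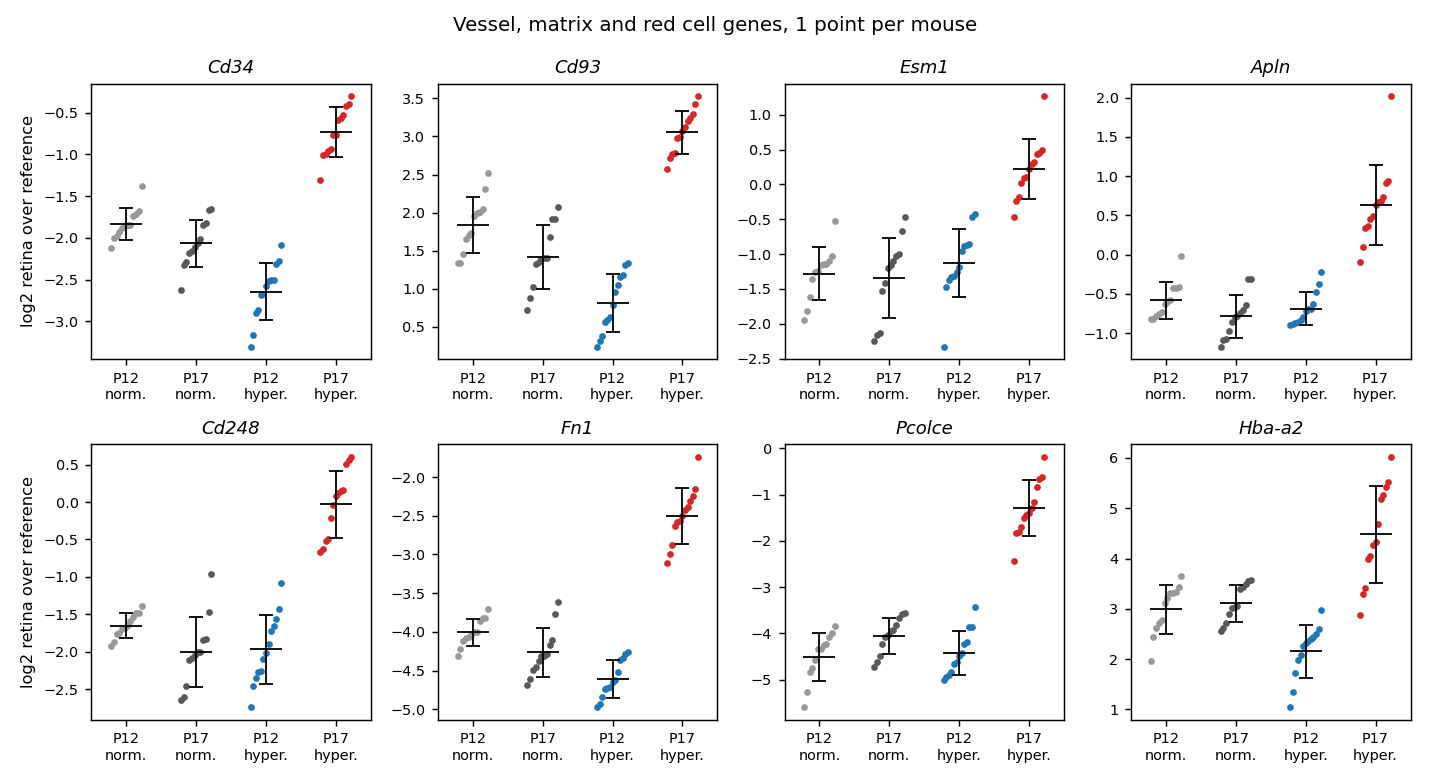
Log2 ratio of retina over reference of 8 vessel, matrix and red cell genes in each mouse of 4 groups (12 or 13 points a group, sorted within a group); the bar is the mean and the whiskers are 1 SD. In all panels the P17 hyperoxia mice lie highest, and for Cd34, Cd93, Fn1 and Hba-a2 the P12 hyperoxia mice lie lowest on average.

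Mural cells and matrix moved with the endothelium. Of 17 genes of pericytes and smooth muscle 10 rose (58.8%, against 3.55% of all genes) and none fell. Their median was 0.57 in exposed mice and -0.02 in normoxia mice. Cd248, the mural cell glycoprotein endosialin, rose by 1.94 ± 0.17 without overlap, from -2.74, -2.02 and -1.08 to -0.67, 0.08 and 0.60, and the difference between the courses was 2.29 ± 0.23. Higd1b rose by 1.39 ± 0.11 and Pdgfrb, the receptor that recruits pericytes, by 0.57 ± 0.10. Tnnt2, cardiac troponin T, was not well above background on any P12 hyperoxia array and was so on all 13 at P17, with a retina signal at least 1.84-fold higher; its log2 ratio rose by 0.71 ± 0.11 (adjusted p = 2.33e-04), with groups from -1.27 to -0.10 and from -0.35 to 0.69, and the difference between the courses was 0.71 ± 0.16 (adjusted p = 0.018; 0.067 without the slide that stood apart). Des, Myh11 and Cnn1, genes of contractile muscle, each changed by 0.03 and did not pass. Actg2, of the same list, changed by 0.28 and did not pass either (adjusted p = 0.694). It was well above background on 0 of 13 P12 and 11 of 13 P17 hyperoxia arrays. In the authors' processed values it rose by 2.46 (adjusted p = 3.69e-06).

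Of 29 matrix genes 13 rose (44.8%, against 3.55% of all genes) and none fell, 10 of them with a higher course than in normoxia mice. Pcolce, which enhances the cleavage of procollagen C-propeptides, rose by 3.12 ± 0.21 (8.72-fold, adjusted p = 1.46e-10). Its log2 ratios were -5.02, -4.50 and -3.43 at P12 and -2.44, -1.39 and -0.19 at P17 in exposed mice, and its mean moved from -4.51 to -4.06 in normoxia mice. Fn1, fibronectin, rose by 2.11 ± 0.12 from a median of -4.64 to -2.50 without overlap. The basement membrane genes Col4a1 (1.05 ± 0.16), Col4a2 (0.89 ± 0.17) and Nid1 (1.04 ± 0.17) rose, where normoxia mice changed by -0.22, -0.24 and -0.22. Tagln2, an actin-binding protein of the transgelin family, was in no list and rose by 2.07 ± 0.14, with a difference between the courses of 2.34 ± 0.18. Its other probe was not called, and the mean of both gave 1.22 and 1.40.

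Red cell transcripts, which blood in the vessels can bring into a retina sample, rose together with the vessel genes. Of 9 red cell genes 6 rose (66.7%, against 3.55% of all genes) and none fell. The mean over the 9 genes ran from 0.15 to 0.65 in P12 hyperoxia mice and from 0.61 to 1.71 in P17 hyperoxia mice. The groups thus overlapped slightly. Hba-a2, an alpha globin, ran from 1.04, 2.32 and 2.97 to 2.89, 4.32 and 6.02, and 12 of 13 P17 mice were above the highest P12 mouse. Its rise was 2.33 ± 0.29 (adjusted p = 7.65e-06), against 0.12 in normoxia mice. Hba-a1, a near-identical copy whose probe may read the same transcripts, rose by 2.21 ± 0.27. The reference channel, which holds no retina, rose by 1.10 for Hba-a2 (adjusted p = 0.403) and by 0.39 for Hba-a1. Neither was called there. Slc4a1 and Epb42, which mark the red cell membrane, changed by 0.01 and -0.01 and did not pass. The P17 mouse with the highest mean over the endothelial genes had the lowest Hba-a2 of its group, 2.89, and was on the slide that stood apart. The part of blood in the other results was not tested.

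Genes that hypoxia induces rose as a group. Of 27 genes of the hypoxia list 15 rose, against 3.55% of all genes, and 1 fell. The median was 0.36 in exposed mice and 0.06 in normoxia mice. For 8 the course was higher in exposed mice, against 0.875% of all genes. Over the 27 genes the mean ran from -0.84 to -0.36 in P12 hyperoxia mice and from -0.35 to -0.04 in P17 hyperoxia mice, without overlap. At P12 the median was -0.67 in exposed and -0.64 in normoxia mice, and at P17 it was -0.10 and -0.54.

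Vegfa, the growth factor that drives vessel sprouting, had log2 ratios of -1.06, -0.62 and -0.19 in P12 hyperoxia mice and of 0.25, 0.53 and 0.82 in P17 hyperoxia mice. There was no overlap, and P17 was higher within each of the 7 shared slides, by 0.89 to 1.45. The rise was 1.13 ± 0.08 (2.18-fold, adjusted p = 7.34e-10), normoxia mice changed by -0.06, and the difference was 1.18 ± 0.12 (adjusted p = 2.20e-09). The other ligands did not pass: Vegfb changed by -0.14, Vegfc by -0.13, Vegfd by -0.01 and Pgf by 0.07. Of the receptors, Flt1 rose by 0.75 ± 0.15, with 0.58 in normoxia mice, and Kdr, with 0.09, did not pass. Angpt2, the vessel-destabilising angiopoietin, changed by 0.30 and Angpt1 by -0.01, and neither passed.

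Slc16a3, the lactate exporter MCT4, rose by 2.39 ± 0.13 (5.25-fold, adjusted p = 1.55e-12), from -1.54, -0.80 and -0.44 to 0.69, 1.61 and 2.08, and normoxia mice also rose, by 0.90. The difference between the courses was 1.49 ± 0.15. Ndufa4l2, a hypoxia-induced mitochondrial protein related to a respiratory chain subunit, rose by 2.20 ± 0.10 without overlap, from a median of 0.32 to 2.55, and its difference between the courses was 2.51 ± 0.14 (adjusted p = 1.72e-18). This probe was also called in the reference channel, where it rose by 0.68 (adjusted p = 6.46e-04). Bnip3, an inducer of mitophagy, rose by 1.51 ± 0.14, and normoxia mice by 0.62. Adm, the vasodilator peptide adrenomedullin, rose by 1.0 ± 0.17 (adjusted p = 4.09e-04), from -2.72, -1.70 and -0.75 to -1.20, -0.67 and -0.12; its difference from the normoxia course was 1.10 ± 0.30 and was not called (adjusted p = 0.133), although it was called under 9 of 16 alternative settings, as with slide as a block (1.16, adjusted p = 0.0031). The gene that fell was Ndrg1, by 1.01 on the log2 scale (SE 0.09), from 0.28, 0.77 and 1.12 to -0.58, -0.27 and 0.08, and it fell by 0.86 in normoxia mice. Car9, Egln3, Pdk1 and Epo did not pass, with changes of 0.05, 0.25, 0.07 and -0.02.

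Glycolysis had the highest share of risen genes among the lists, 15 of 19 (78.9%, against 3.55% of all genes), with a median of 0.91. Here normoxia mice moved too, with a median of 0.45 and 3 risen genes, and the difference between the courses passed for Pfkp, Pfkl and Gpi1. Pfkp, the platelet isoform of phosphofructokinase, rose by 1.70 ± 0.14 from a median of -0.02 to 1.71 without overlap, where normoxia mice changed by 0.17. Pfkl, the liver isoform, rose by 1.40 ± 0.12, and Pfkm, the muscle isoform, with 0.08, did not pass. Hk2, the hexokinase bound to mitochondria, rose nearly alike in both oxygen groups, by 1.81 ± 0.19 in exposed and 1.53 in normoxia mice. Slc2a1, the glucose transporter of endothelium and photoreceptors, rose by 0.91 ± 0.11, with 0.37 in normoxia mice.

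**Figure D3:**
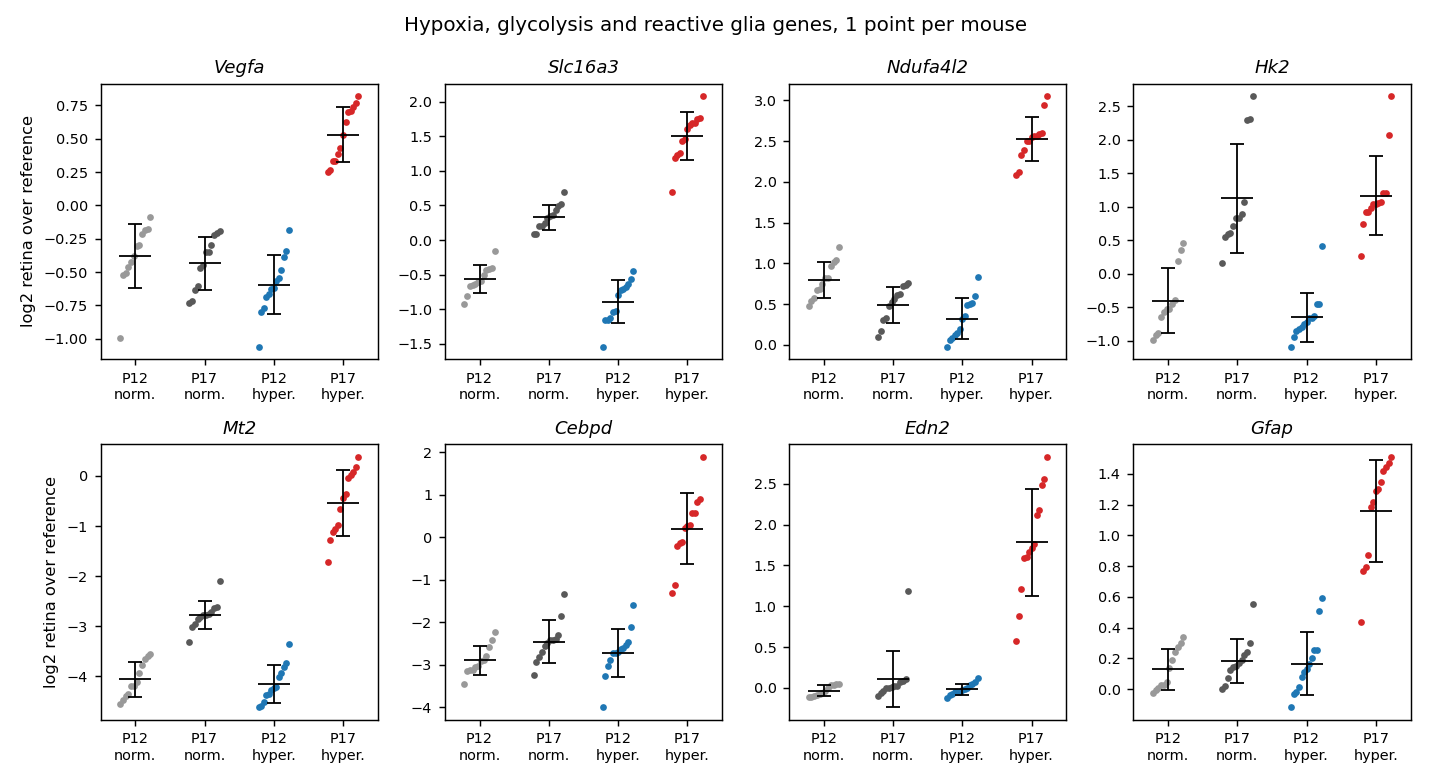
Log2 ratio of retina over reference of 8 genes of the hypoxia, glycolysis and reactive glia lists in each mouse of 4 groups (12 or 13 points a group, sorted within a group); the bar is the mean and the whiskers are 1 SD. Hk2 rises from P12 to P17 in both oxygen groups, while Vegfa, Ndufa4l2, Cebpd, Edn2 and Gfap stand higher in the P17 hyperoxia mice than in the other 3 groups.

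The letters ACGTG are the core of the element that hypoxia-inducible factors bind, and promoters of members that rose together are shown for that reason. In the RefSeq promoter table (GRCm38.p6), the 250 bases before a gene's start held ACGTG on either strand in 16.6% of 32851 windows. Of the 15 risen genes of the hypoxia list 13 had windows, 17 in all, and 58.8% of these held the letters; of the 15 risen glycolysis genes 14 had windows, 21 in all, and 33.3% held them. Over all members of the lists, risen or not, the shares were 51.6% of 31 and 34.5% of 29 windows. A match describes the letters only. The 4 windows that follow belong to the members with the largest rises among those with 2 matches or more, printed 5′ to 3′ on the strand of the gene and ending at its start, with the matches in capitals (CACGT is ACGTG on the other strand, and the 2 matches of Bnip3 overlap as CACGTG). They are chr11:120948817-120949066 (+ strand), chr6:82774455-82774704 (- strand), chr7:138909507-138909756 (- strand) and chrX:106186850-106187099 (+ strand).
Slc16a3: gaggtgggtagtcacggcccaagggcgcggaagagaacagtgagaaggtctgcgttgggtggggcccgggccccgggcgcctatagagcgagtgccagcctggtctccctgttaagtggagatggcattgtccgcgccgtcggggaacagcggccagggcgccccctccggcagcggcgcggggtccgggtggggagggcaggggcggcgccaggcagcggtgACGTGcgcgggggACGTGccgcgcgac
Hk2: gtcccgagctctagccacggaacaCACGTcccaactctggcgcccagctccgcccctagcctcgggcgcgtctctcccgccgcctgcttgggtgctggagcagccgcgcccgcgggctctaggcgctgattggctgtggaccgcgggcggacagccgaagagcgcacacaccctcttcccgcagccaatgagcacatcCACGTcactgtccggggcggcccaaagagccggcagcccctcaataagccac
Bnip3: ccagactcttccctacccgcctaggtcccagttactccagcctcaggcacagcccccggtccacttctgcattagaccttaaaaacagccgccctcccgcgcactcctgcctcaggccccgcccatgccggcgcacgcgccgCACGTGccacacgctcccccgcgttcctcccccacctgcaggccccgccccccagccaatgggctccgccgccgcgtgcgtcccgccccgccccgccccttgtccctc
Pgk1: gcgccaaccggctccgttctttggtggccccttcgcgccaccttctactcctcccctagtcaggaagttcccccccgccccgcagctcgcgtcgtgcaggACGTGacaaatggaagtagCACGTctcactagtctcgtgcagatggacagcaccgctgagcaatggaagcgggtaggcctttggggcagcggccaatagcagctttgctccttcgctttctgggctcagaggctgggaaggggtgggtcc
The matches of Slc16a3 end 22 and 9 bases before its start.

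Genes of reactive glia rose as well. When the retina is injured, Müller cells and astrocytes make more intermediate filament and switch on acute-phase, STAT3-driven and metal-binding genes. Of 23 genes of the reactive glia list 14 rose (60.9%, against 3.55% of all genes) and none fell. Their median was 0.76 in exposed mice and 0.00 in normoxia mice. For 11 the course was higher in exposed mice, against 0.875% of all genes. Gfap, Edn2, Bcl3 and Cebpd of this list are among the study's largest rises at P17, and all rose here. They were chosen on these arrays, so part of these counts follows from that choice. Over the 23 genes the mean ran from -1.83 to -1.05 in P12 hyperoxia mice and from -0.76 to 0.04 in P17 hyperoxia mice, without overlap, and the normoxia medians were -1.36 and -1.23.

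Mt2, a metallothionein that binds zinc and copper, rose by 3.62 ± 0.20 (12.3-fold, adjusted p = 4.38e-12), more than any other gene with a symbol under the offset used here. In the authors' processed values Mt2 gave 4.41, and Esm1 (5.65), Bcl3 (4.89), Edn2 (4.87) and Cebpd (4.42) gave more. Its log2 ratios were -4.62, -4.22 and -3.35 in P12 hyperoxia mice and -1.71, -0.45 and 0.38 in P17 hyperoxia mice, with no overlap. Normoxia mice rose as well, by 1.29, and the difference was 2.33 ± 0.25 (adjusted p = 5.24e-09). Mt1, its neighbour on chromosome 8, followed it with 2.71 ± 0.14, from -4.10, -3.46 and -3.16 to -1.49, -0.65 and -0.22, and with 1.14 in normoxia mice. The mean of its 2 probes, both called, rose by 1.44. Metallothionein promoters carry elements with the core TGCACNC or TGCGCNC; their windows are shown because both genes moved together, with these letters in capitals on either strand. One or other core was in 21.4% of the 32851 windows. The windows are chr8:94178839-94179088 and chr8:94172368-94172617, both on the + strand.
Mt1: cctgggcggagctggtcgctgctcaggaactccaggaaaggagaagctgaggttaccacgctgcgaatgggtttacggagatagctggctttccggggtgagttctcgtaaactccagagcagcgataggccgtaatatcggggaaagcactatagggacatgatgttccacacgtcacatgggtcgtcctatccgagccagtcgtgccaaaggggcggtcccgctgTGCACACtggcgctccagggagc
Mt2: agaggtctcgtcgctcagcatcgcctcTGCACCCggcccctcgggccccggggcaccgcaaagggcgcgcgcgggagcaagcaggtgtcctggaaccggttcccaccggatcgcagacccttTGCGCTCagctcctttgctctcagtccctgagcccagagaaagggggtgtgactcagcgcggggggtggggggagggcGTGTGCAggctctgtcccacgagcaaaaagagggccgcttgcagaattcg
The window of Mt1 held 1 match and that of Mt2 held 3.

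Cebpd, a transcription factor of the acute-phase response, rose by 2.91 ± 0.27 (adjusted p = 4.90e-08). Its log2 ratios spread widely, from -4.0, -2.70 and -1.59 to -1.31, 0.26 and 1.89, but the groups did not overlap. Edn2, endothelin 2, which damaged photoreceptors make, was not well above background on any P12 hyperoxia array and was so on all 13 at P17, with a retina signal at least 5.0-fold higher. Its log2 ratio rose from -0.13, -0.03 and 0.12 to 0.58, 1.71 and 2.83, by 1.80 ± 0.18 (adjusted p = 1.30e-07). Gfap, the filament of astrocytes and reactive Müller cells, rose by 0.99 ± 0.11 (adjusted p = 4.60e-07), from -0.12, 0.13 and 0.59 to 0.44, 1.29 and 1.51, with 12 of 13 P17 mice above the highest P12 mouse, 7 of 13 P12 arrays well above background, and a change of 0.05 in normoxia mice. Neither of its other 2 probes was called, and the mean of the 3 rose by 0.40. Nes and Vim, the filaments nestin and vimentin, rose by 1.37 ± 0.13 and 1.04 ± 0.09. Stat3 rose by 1.43 ± 0.14 from a median of -0.08 to 1.25 without overlap, and Bcl3, a nuclear partner of NF-kappaB, by 1.56 ± 0.23, with 2 of 13 P12 arrays well above background. Nupr1, a stress-induced chromatin protein, rose by 1.90 ± 0.20. Serpina3n, Lif and Tnc did not pass, with 0.15, 0.02 and -0.05.

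Genes of the resting cells of the same kind did not move with them. Of 14 Müller cell genes 1 rose (7.14%, against 3.55% of all genes). It was Clu, the chaperone clusterin, with 1.29 ± 0.12 in exposed and 1.19 in normoxia mice. Glul, Rlbp1 and Slc1a3 changed by 0.45, -0.20 and -0.33 and did not pass. Of 6 astrocyte genes 1 rose, Aldh1l1, a folate enzyme, by 0.66 ± 0.09.

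Immune genes rose in part. C4b, a complement component, rose by 1.87 ± 0.13 without overlap, from -0.91, -0.69 and -0.31 to 0.66, 1.14 and 2.07, and its difference from the normoxia course was 1.70 ± 0.15. Serping1, the C1 inhibitor, was the only other of 17 complement genes that rose, by 0.93 ± 0.15. Together they made 11.8% of the list, against 3.55% of all genes. Of 23 interferon-stimulated genes 6 rose (26.1%, against 3.55% of all genes) and none fell, with a median of 0.21. Ifi27 rose by 0.82 ± 0.17 and the class I genes H2-K1 and B2m by 0.79 ± 0.12 and 0.64 ± 0.17. For none of the 23 did the difference between the courses pass. The count of 6 was 17 in the authors' processed values. None of 18 microglia and macrophage genes passed; their median change was 0.10 in exposed and -0.16 in normoxia mice. Of 20 immediate early genes 8 rose (40%, against 3.55% of all genes), and the count was 13 in the authors' processed values. The largest rise was that of Nr4a1, an orphan nuclear receptor, with 1.25 ± 0.11 from -1.15, -0.78 and -0.43 to -0.32, 0.59 and 0.78. Of 24 antioxidant and NRF2 target genes 5 rose in exposed and 5 in normoxia mice, against 3.55% and 1.14% of all genes. None fell, and the medians were 0.03 and 0.04. Hmox1, the heme-degrading enzyme, rose by 1.41 ± 0.24. Nqo1, Gclm and Txnrd1, of the same list, changed by 0.02, 0.00 and -0.21 and did not pass.

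The falls were smaller and more even. All 30 respiratory chain genes had a negative change in exposed mice, between -0.64 and -0.13, and 15 of them fell, against 2.4% of all genes. The list's median was -0.36 in exposed and -0.07 in normoxia mice, and 9 genes fell with sex as a covariate and 21 without the slide that stood apart. Over the 30 genes the mean ran from -0.27 to 0.67 in P12 hyperoxia mice and from -0.37 to 0.21 in P17 hyperoxia mice, so the groups overlapped. At P12 the median was 0.30 in exposed and 0.04 in normoxia mice, and at P17 it was -0.21 and 0.08. Exposed mice thus stood above the controls at P12 and below them at P17. Sdhd, a membrane anchor of complex II, fell by 0.64 on the log2 scale (SE 0.14, adjusted p = 0.00803), from -1.17, -0.45 and 0.05 to -1.48, -1.16 and -0.61. Ndufs1, the largest subunit of complex I, fell by 0.34 (SE 0.07), from 0.11, 0.46 and 0.72 to -0.08, 0.09 and 0.37, and was the only one of the 30 with a lower course than in normoxia mice (difference -0.37 ± 0.09, adjusted p = 0.0342). Ndufb3, a complex I subunit outside the list, fell by 0.38 (SE 0.06) with a difference of -0.39 ± 0.10 (adjusted p = 0.0479). Both differences lost their call with slide as a block (adjusted p = 0.057 and 0.074), with sex as a covariate and without the slide that stood apart. Of 22 cholesterol synthesis genes 6 fell (27.3%, against 2.4% of all genes) and none rose. Their median was -0.13 in exposed and 0.02 in normoxia mice. Fdps, which makes farnesyl diphosphate, fell by 0.47 (SE 0.08).

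Nsg1, a neuronal endosomal protein, had the largest negative difference between the courses among the fallen genes. It fell by 0.65 on the log2 scale (SE 0.11, adjusted p = 3.38e-04), from 1.72, 2.15 and 2.64 to 1.15, 1.54 and 1.86, and normoxia mice changed by 0.00; the difference was -0.65 ± 0.15 (adjusted p = 0.0225; 0.057 with sex as a covariate and 0.064 without the slide that stood apart). Gfra2, a receptor of neurturin, and Ebf1, a transcription factor, fell by 0.28 and 0.16 and had differences of -0.37 ± 0.08 and -0.32 ± 0.07. Olfr591 and Olfr399, olfactory receptors, were named by the same rule with falls of 0.08 each, but were well above background on no array of exposed mice.

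Genes of immature neurons fell in exposed mice, with a median change near that of normoxia mice. Of 25 such genes 9 fell (36%, against 2.4% of all genes) and none rose. Their median was -0.15 in exposed and -0.12 in normoxia mice, and for none did the difference between the courses pass. Tubb2b, a tubulin of growing neurites, fell by 1.53 (SE 0.11, adjusted p = 8.93e-10) from 1.96, 2.42 and 3.13 to 0.47, 1.02 and 1.26, without overlap, and by 1.98 in normoxia mice. The mean of its 2 probes, both called, fell by 1.11. Marcksl1, an actin-regulating protein, fell by 1.0 (SE 0.16) and Sox4 by 0.66 (SE 0.08). None of the other large falls had a called difference between the courses. Trib1, a pseudokinase, fell by 1.59 (SE 0.15) from 1.06, 1.74 and 2.54 to -0.40, -0.07 and 0.69, and by 1.12 in normoxia mice. Insm1, a transcription factor of newborn neurons, fell by 1.56 (SE 0.20) and by 1.17; Hmgn2, a nucleosome-binding protein, by 1.11 (SE 0.13) and by 0.74; Nnat, neuronatin, by 1.03 (SE 0.14) and by 0.85. Ttyh2, Vcam1 and Fabp7 fell by 0.97, 0.96 and 0.94 in exposed and by 1.13, 1.03 and 0.91 in normoxia mice. The second probes of Ttyh2 and Vcam1 were not called, and their means over both probes fell by 0.58 and 0.51. In the authors' processed values Insm1 (-0.47, adjusted p = 0.44) and Nnat (-0.34, adjusted p = 0.61) did not pass.

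**Figure D4:**
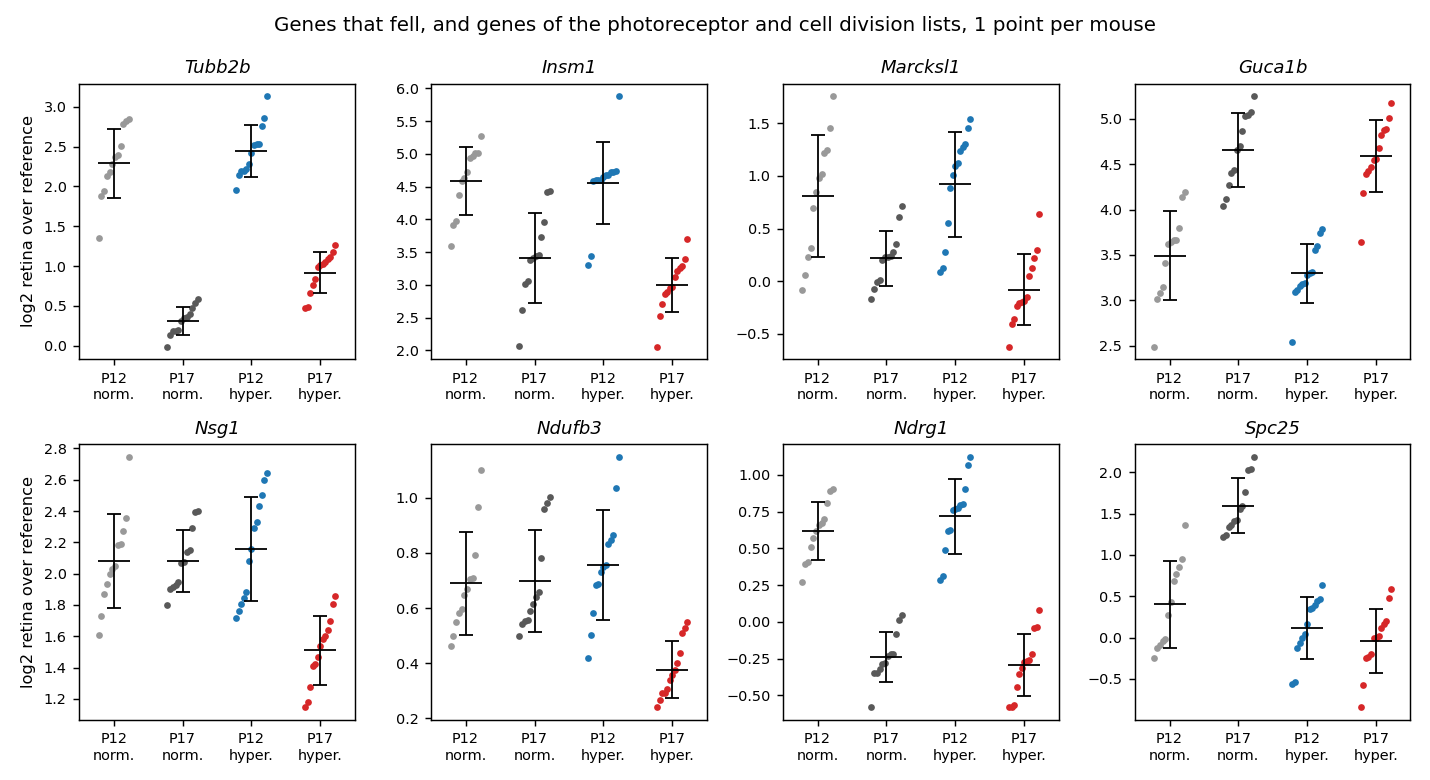
Log2 ratio of retina over reference of 8 genes in each mouse of 4 groups (12 or 13 points a group, sorted within a group); the bar is the mean and the whiskers are 1 SD. From P12 to P17 the means of Tubb2b, Insm1, Marcksl1 and Ndrg1 are lower and that of Guca1b is higher in both oxygen groups (the change of Marcksl1 in normoxia mice did not pass), those of Nsg1 and Ndufb3 are lower in hyperoxia mice alone, and Spc25 is higher in P17 normoxia mice than in the other 3 groups.

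A few photoreceptor genes rose. Of 26 rod genes 2 rose (7.69%, against 3.55% of all genes). Guca1b, a calcium sensor of the outer segment, rose by 1.29 ± 0.14 from 2.54, 3.28 and 3.78 to 3.64, 4.55 and 5.17. Slc24a1, the sodium-calcium exchanger of the outer segment, rose by 0.73 ± 0.20. Normoxia mice changed by 1.17 and 0.77 in these genes. The list's medians were 0.24 and 0.18. Of 12 cone genes 4 rose (33.3%, against 3.55% of all genes). Arr3, cone arrestin, rose by 0.92 ± 0.23 (adjusted p = 0.0179), with 0.62 in normoxia mice. In the authors' processed values it rose by 0.30 and did not pass (adjusted p = 0.78), and 1 cone gene did. Of 16 bipolar cell genes 1 rose and 1 fell (12.5% called, against 5.95% of all genes). Their median was -0.04 in exposed and 0.02 in normoxia mice. The risen gene was Rgs11, which speeds the light response of ON bipolar cells. It rose by 0.96 ± 0.13 without overlap, from 0.55, 1.37 and 1.70 to 1.72, 2.30 and 2.73, where normoxia mice changed by 0.01. The difference was 0.95 ± 0.20 (adjusted p = 0.00998, and 0.15 in the authors' processed values). Prox1 of horizontal cells and Gap43 of growing ganglion cell axons fell by 0.32 and 0.87, and neither passed in the authors' processed values. None of 16 amacrine and none of 27 synapse genes passed. Their median changes were -0.12 and -0.03 in exposed mice and 0.08 and 0.17 in normoxia mice. Ganglion cell genes had medians of -0.10 and 0.04, and horizontal cell genes of -0.02 and -0.03. For no gene of these lists did the difference between the courses pass. Among 29 receptors Drd2, a dopamine receptor, fell by 0.10, with 3 of 13 P12 and 1 of 13 P17 arrays well above background. Among 24 channels Kcnj14 rose by 1.04 (0.59 as the mean of its 2 probes) and Kcne1l fell by 0.60; Drd2 and Kcnj14 did not pass in the authors' processed values.

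Spc25, a kinetochore protein, is one of the genes that the study singled out. In exposed mice it did not pass, with -0.16 ± 0.15 (adjusted p = 0.806) and log2 ratios of -0.56, 0.16 and 0.63 at P12 and -0.84, 0.00 and 0.59 at P17. In normoxia mice it rose by 1.20, from a mean of 0.40 to 1.60, so the difference was -1.35 ± 0.23 (adjusted p = 2.30e-04). None of the 30 cell division genes, Spc25 included, passed in exposed mice. Of the 36 genes that the study named on P12 or P17, 21 rose and 2 fell in exposed mice. For 17 and 1 the difference between the courses was higher and lower. They were chosen on these arrays, so these counts are no independent evidence. Some also stand in the lists above, as Pcolce does among matrix genes, Adm among hypoxia genes and C4b among complement genes. The counts of those lists are to that extent not independent either.

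**Figure D5:**
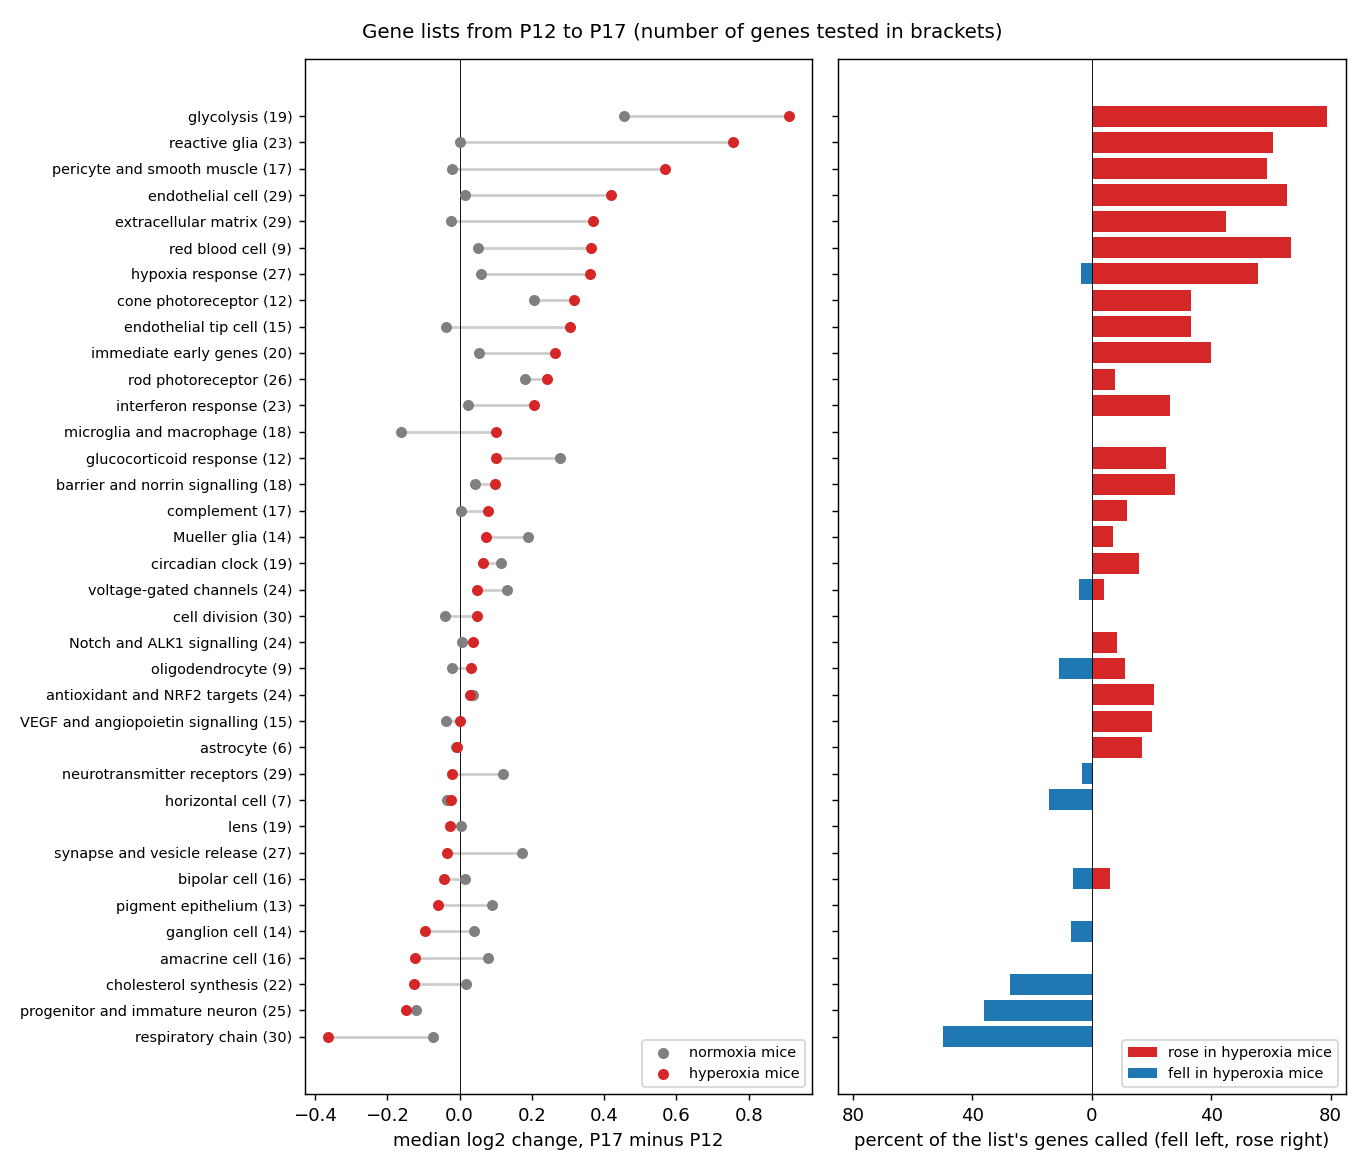
Left, median log2 change from P12 to P17 over the genes of each list in hyperoxia (red) and normoxia (grey) mice; right, percent of each list's genes that rose (red) or fell (blue) in hyperoxia mice, with the number of genes tested in brackets. Glycolysis has the highest median, 0.91, and the respiratory chain the lowest, -0.36, and microglia, lens, pigment epithelium, amacrine, synapse and cell division lists have no called gene.

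No lens gene (of 19) and no pigment epithelium gene (of 13) passed in exposed mice. Of 9 oligodendrocyte genes, which mark attached optic nerve, 2 passed, in opposite directions: Mal rose by 0.40 ± 0.07, with 2 of 13 P12 and 12 of 13 P17 arrays well above background, and Mbp fell by 0.38 (SE 0.07), or by 0.15 as the mean of its 3 probes, of which the other two were not called with it. Of 19 clock genes 3 rose in exposed and 3 in normoxia mice, against 3.55% and 1.14% of all genes. Their medians were 0.06 and 0.11, and Per1 rose by 0.66 ± 0.10 in exposed mice. Of 12 glucocorticoid-responsive genes 3 rose in exposed and 4 in normoxia mice, against the same shares of all genes. Their medians were 0.10 and 0.28.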

How the data were processed

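Retinas of single mice were hybridised with universal mouse reference RNA on 2-colour arrays. The authors scanned the arrays and extracted spot intensities with Agilent Feature Extraction 10.7.3.1 (per the file headers); these intensities were deposited unnormalized and as processed signals, together with a log10 ratio of Cy5 over Cy3 per spot. The deposited value table holds log2 ratios the authors made in GeneSpring, and equals log2 of processed Cy3 over Cy5 for at least 99.66% of probes on each array (within 0.001). No column of it was left unused for want of a sample (0 columns).

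Median intensities were background-corrected (normexp, offset 50), loess-normalized within each array with control spots at weight 0, and turned to Cy3 (retina) over Cy5. Outlier spots were left out and spots of a probe averaged. The offset makes the ratios of dim probes smaller than in the authors' table: the change of Esm1 was 1.35 here and 5.65 there. Actg2 passed there and not here, so a dim gene that did not pass cannot be taken as unchanged. Tests were limma 3.58.1 (R 4.3.3, lmFit and eBayes) with Benjamini-Hochberg adjustment over 55681 probes, called at an adjusted p under 0.05. They were P17 against P12 hyperoxia on 26 arrays, and the difference between the courses on 50 arrays. The change in normoxia mice was a contrast in the model of those 50 arrays. Symbols came from RefSeq accessions (GRCm38.p6) for 28026 probes and 21154 genes, with the brightest probe taken per gene. The number of arrays limits the precision. On simulated data of 55338 probes the hyperoxia comparison recovered 97 of 100 probes changed by 1 and 89 of 100 changed by 0.5 (log2), with 8 false calls. The simulated noise was normal and independent between probes and arrays, with no slide effect. These rates therefore do not cover the differences between slides in the real arrays.

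The genes named were the 10 largest rises and 10 largest falls, up to 8 genes with the largest difference between the courses in each direction, the largest called rise and fall of each list, and genes the study named; other list members named were chosen after their values were seen. Some genes that the rule or the lists hold are not reported here. The members and lists were chosen with earlier results of these data known. Alternatives changed the background correction, source of the ratio, channel, filter, slide, weights, variance estimation, model, sex, adjustment and the probes taken per gene; leaving out a slide, and the table with slide as a block, were added after seeing the data.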

Additional observations from a re-analysis of the deposited data

Results flagged for a closer look

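The courses of exposed and normoxia mice differed, by the interaction term of limma with Benjamini-Hochberg adjustment, for 222 probes with a higher and 14 with a lower course in exposed mice. Values here are that difference on the log2 scale, the P17 minus P12 change in hyperoxia mice less that in normoxia mice. Among vessel, mural and matrix genes it was Cd93 2.66, Pcolce 2.67, Fn1 2.37, Tagln2 2.34, Cd248 2.29, Cd34 2.14, Vwf 1.56, Apln 1.53, Esm1 1.41, Eng 0.80 and Tnnt2 0.71. Among hypoxia genes it was Ndufa4l2 2.51, Slc16a3 1.49 and Vegfa 1.18. Reactive glia genes gave Cebpd 2.47, Mt2 2.33, Edn2 1.65, Mt1 1.57 and Gfap 0.94. The alpha globins gave Hba-a2 2.20 and Hba-a1 2.08, and other genes with a higher course in exposed mice were C4b 1.70, Rgs11 0.95 and Nr4a1 0.86. A lower course in exposed mice was found for Spc25 -1.35, Nsg1 -0.65, Ndufb3 -0.39, Ndufs1 -0.37, Gfra2 -0.37, Ebf1 -0.32, Olfr591 -0.12 and Olfr399 -0.10, of which the olfactory receptors were never well above background on arrays of exposed mice.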

How the results depend on the processing

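No paired analysis was possible because the mouse numbers are not shared between groups. The number of probes called from P12 to P17 in exposed mice, 1841, and in the difference between the courses, 222 higher and 14 lower, depended on the processing. They were 3323 and 649 with the scanner software's log ratio, 3164 and 633 with the authors' value table, 3660 and 805 with that table and slide as a block, and 3489 and 723 with the retina channel alone. With slide as a fixed block they were 3616 and 448, with array weights 3482 and 427, and with Bonferroni adjustment 344 and 88. The difference gave 454 with an offset of 0 and 362 with slide as a random block, and exposed mice gave 3108 without the slide that stood apart. The reference channel alone, which holds no retina, gave 3 and 1. Of the 1841 probes, 1740 were also called with slide as a fixed block, 1578 in the value table and 1774 without the slide that stood apart. The higher share among called probes, 59.1%, was 72.0% with an offset of 0, 73.5% with Bonferroni adjustment, 49.1% with slide as a fixed block, 48.2% with array weights and 48.7% without that slide; in the difference, 94.1% became 81.1% with the retina channel alone and 78.7% with array weights. The rod list's median difference, 0.13, turned to -0.19 with the retina channel alone and -0.016 with slide as a fixed block. The cause of these shifts was not tested. Over the named genes' changes 901 values stayed the same and 64 lost the call. Over their differences 470 stayed the same, 49 lost the call and 9 gained it. The same means direction and side of the threshold. The exceptions are 8 of the changes and 2 of the differences, which are means of all probes of a gene. Those have no test and count as the same because they stayed within the spread between mice. With the mean of all probes of a gene in place of the brightest, a value with no test, the changes of 9 of 17 named genes and the differences of 4 of 6 moved by more than the spread between mice: Mt1 1.44, Tubb2b -1.11, Ttyh2 -0.58, Vcam1 -0.51, Tagln2 1.22, Mbp -0.15, Kcnj14 0.59, Cd34 0.98 and Gfap 0.40.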

Other observations

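For 18 genes the courses differed although the change in exposed mice did not pass. Col2a1, a fibrillar collagen, changed by 0.14 in exposed and -0.81 in normoxia mice (adjusted p of the difference = 0.013), Agrn, the basement membrane proteoglycan agrin, by 0.22 in exposed and -0.61 in normoxia mice (adjusted p of the difference = 0.0348), and Mfap2, a microfibril protein, by 0.04 in exposed and -0.58 in normoxia mice (adjusted p of the difference = 0.0141). Col5a3, a minor fibrillar collagen, changed by 0.09 in exposed and -0.39 in normoxia mice (adjusted p of the difference = 0.00926). In the other direction, Enpp2, the lysophospholipase autotaxin made by pigment epithelium, changed by -0.17 in exposed and 0.69 in normoxia mice (adjusted p of the difference = 0.0037), and Tsc22d3, a glucocorticoid-induced gene, by -0.07 in exposed and 0.39 in normoxia mice (adjusted p of the difference = 0.0479). These genes were chosen after their values were seen.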
